A study of Mus musculus with 17 samples.

Results

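Chromatin accessibility was described at 7 genes of lymphocyte adhesion, Itga4, Itgb1, Itgb7, Itgal, Itgb2, Cd44 and Icam1, in 3 stages of the mouse B lineage. These were naïve B cells (nB), B cells of the germinal center (GCB) and plasma cells from bone marrow (BMPC). All accessible regions that the deposited annotation assigned to one of these symbols, either as the nearest gene or as the gene with the nearest transcription start site (TSS), were taken. They were 75 of the 66177 regions measured by ATAC-seq, an assay that cuts open chromatin with a transposase and sequences the fragments. Itga4 had 26 regions, Cd44 24, Itgb2 7, Itgb1 6, Itgb7 and Itgal 5 each and Icam1 2. By the deposited annotation 8 of the 75 regions were promoters, 37 lay outside genes and 15 were assigned by the nearest start alone (5 of them within a gene of another name). Every region had a mean of at least 1 RPPM over the libraries. Each value is in RPPM, the reads in a region scaled to 1e+06 reads over all regions of that library.

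The 16 libraries came from 6 groups, with each cell type taken from mice that were Dnmt3-sufficient (C) or Dnmt3-deficient (KO). Mice of both kinds carried floxed Dnmt3a and Dnmt3b alleles (fl/fl for both genes) on the background B6;129S4-Dnmt3atm3.1Enl Dnmt3btm5.1Enl/Mmnc. KO mice also had 1 cre allele, which acts in the B lineage, and the C mice had none. The presence of cre cannot be told apart from the loss of both methyltransferases in any KO against C comparison. nB (3 C and 2 KO libraries, 1 mouse each) were B220+ GL7- Fas- cells from lymph nodes of unimmunized males. GCB (2 C and 4 KO libraries, pools of 2 mice, female or male) were Fas+ GL7+ B220+ lymph node cells that bound phycoerythrin (PE), sorted 30 days after immunization with PE. BMPC (3 C and 2 KO libraries) were CD138+ bone marrow cells of female mice at the same day. Mice were 8 to 12 weeks old when experiments began, per the study's methods. As GCB and BMPC were sorted 30 days after immunization, age at sorting may also have differed from that of nB. Sex, tissue and immunization therefore differed along with the cell type between nB and BMPC and cannot be told apart from it. Between nB and GCB, immunization and the pooling of mice differed with the cell type. Tissue and pooling differed between GCB and BMPC, as each BMPC library came from 1 mouse. These too cannot be told apart from the cell type. Sex was mixed in GCB, so it differed in part in both comparisons, and it was not fitted. The GCB C pools were F2 (female) and M1 (male). Those of GCB KO were F1, F2 and F3 (female) and M1 (male), so sex also differed in part between the genotypes in GCB. In these bulk libraries, a smaller share of cells with an open region cannot be told apart from a less accessible region in every cell.

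Integrins are heterodimeric receptors of an alpha and a beta subunit that bind matrix proteins or counter-receptors on other cells once they are activated. The alpha 4 subunit (Itga4) pairs with beta 1 (Itgb1) to form VLA-4, which binds VCAM-1 and fibronectin and holds B lineage cells in the bone marrow and on follicular dendritic cells, or with beta 7 (Itgb7) to form the receptor for the mucosal addressin MAdCAM-1. The alpha L subunit (Itgal) and beta 2 (Itgb2) form LFA-1, whose ligands include ICAM-1 (Icam1), and CD44 (Cd44) is the main receptor for hyaluronan and rises on many lymphocytes after activation.

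The nB libraries held 4104875 to 6079018 reads in regions, the GCB libraries 907959 to 2280954 and the BMPC libraries 5357687 to 8232313. A count of 3 reads was therefore worth 0.364 to 3.30 RPPM, and the GCB values were the least precise. Of the promoters of genes that mark the cell types, Gcsam was at 0.580 RPPM in nB C and 21.0 in GCB C, and Tnfrsf17 was at 0.392 in nB C and 20.0 in BMPC C. Not every listed marker was highest in its own cell type. Bcl6, a germinal center factor, was at 53.8 RPPM in nB C and 20.0 in GCB C, and the germinal center gene S1pr2 was at 26.2 in GCB C and 39.3 in BMPC C. The plasma cell genes Irf4 and Creb3l2 were at 57.4 and 95.9 in nB C and at 44.1 and 91.3 in BMPC C. The pan-B gene Pax5 was at 40.3 RPPM in nB C and 2.84 in BMPC C. The plasma cell marker Sdc1 had no promoter region in the table, and neither did Cd3e, Csf1r or Gata1, which mark other cell types. Summed over the 2 of 8 erythroid and megakaryocyte genes with a promoter region, accessibility was 16.6 to 21.1 RPPM in nB, 21.0 to 27.5 in GCB and 29.9 to 37.1 in BMPC. The 3 of 9 myeloid genes summed to 9.80 to 13.2, 12.6 to 19.8 and 16.2 to 18.2 RPPM, and the 3 of 9 T and NK cell genes to 82.6 to 89.5, 94.7 to 115 and 35.8 to 41.4 RPPM. The sums over the erythroid, megakaryocyte and myeloid genes were thus higher in BMPC than in nB. Within the myeloid list Cebpe was at 2.19 RPPM in nB C and 11.5 in BMPC C and Itgam at 4.04 and 1.14. Of the T and NK cell genes Cd2 was at 64.0 RPPM in nB C, 82.6 in GCB C and 13.4 in BMPC C. It held most of the sum of these genes in nB C and GCB C. Lck, at 13.4 in nB C and 17.9 in BMPC C, and Gata3, at 6.15 and 7.38, went the other way from nB to BMPC. The study's staining panels removed cells marked by CD11b, CD11c, CD90.2 or Ly6-G, and the part of other cells in the values of the 7 genes was not tested.

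Sequences of 6 regions are shown because each had the largest called difference of its gene from nB to GCB or from nB to BMPC in C mice. The sequences are the 300 bases around the middle of each region on the plus strand of NCBIM37 (mm9), with matches to 7 short motif cores in capitals.
Itgb1, 32.4 kb upstream of the TSS, chr8:131176743-131177042: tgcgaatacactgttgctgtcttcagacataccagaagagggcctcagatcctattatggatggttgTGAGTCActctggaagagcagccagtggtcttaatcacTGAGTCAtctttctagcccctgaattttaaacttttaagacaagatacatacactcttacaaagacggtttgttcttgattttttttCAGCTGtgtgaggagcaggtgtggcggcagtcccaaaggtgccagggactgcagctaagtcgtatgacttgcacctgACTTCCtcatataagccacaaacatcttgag
Itgb1, 30.6 kb upstream, chr8:131178561-131178860: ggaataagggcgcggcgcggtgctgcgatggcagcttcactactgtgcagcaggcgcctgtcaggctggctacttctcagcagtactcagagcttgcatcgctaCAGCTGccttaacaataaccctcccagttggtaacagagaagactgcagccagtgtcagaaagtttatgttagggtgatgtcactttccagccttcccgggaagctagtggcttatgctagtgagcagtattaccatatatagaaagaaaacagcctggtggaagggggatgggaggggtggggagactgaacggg
Itga4, 116.9 kb upstream, chr2:78977619-78977918: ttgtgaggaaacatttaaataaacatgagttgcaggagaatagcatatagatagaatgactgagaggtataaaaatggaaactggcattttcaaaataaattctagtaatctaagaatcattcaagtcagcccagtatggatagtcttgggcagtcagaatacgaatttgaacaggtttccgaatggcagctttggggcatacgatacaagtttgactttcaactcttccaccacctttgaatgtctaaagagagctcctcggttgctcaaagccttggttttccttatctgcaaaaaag
Itgb2, 3.1 kb upstream, chr10:76989575-76989874: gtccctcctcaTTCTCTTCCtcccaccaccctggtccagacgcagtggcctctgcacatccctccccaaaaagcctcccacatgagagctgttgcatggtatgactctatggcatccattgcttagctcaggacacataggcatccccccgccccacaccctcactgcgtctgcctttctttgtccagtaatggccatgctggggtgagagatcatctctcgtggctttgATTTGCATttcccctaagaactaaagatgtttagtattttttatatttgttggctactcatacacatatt
Cd44, in intron 18, 85.7 kb from the TSS, chr2:102655585-102655884: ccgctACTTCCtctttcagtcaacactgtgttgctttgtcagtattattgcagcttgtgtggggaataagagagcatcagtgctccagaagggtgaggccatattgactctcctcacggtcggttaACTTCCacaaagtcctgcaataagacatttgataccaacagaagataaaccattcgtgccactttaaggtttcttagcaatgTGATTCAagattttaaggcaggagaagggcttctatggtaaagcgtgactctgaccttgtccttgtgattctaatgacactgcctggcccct
Icam1, in intron 1, 0.4 kb from the TSS, chr9:20821012-20821311: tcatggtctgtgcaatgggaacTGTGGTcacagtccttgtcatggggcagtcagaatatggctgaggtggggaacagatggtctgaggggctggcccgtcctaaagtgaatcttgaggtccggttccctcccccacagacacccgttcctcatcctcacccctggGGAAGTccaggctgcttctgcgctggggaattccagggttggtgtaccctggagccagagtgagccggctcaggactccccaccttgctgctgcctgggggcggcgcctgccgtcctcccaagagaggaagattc
In the window 32.4 kb upstream of Itgb1 the capitals mark the AP-1 core TGANTCA at 2 places, the E2A core CAGCTG and the PU.1 core GGAAGT read on the other strand. The window 30.6 kb upstream held a CAGCTG. The Itgb2 window held the ETS-IRF composite GGAANNGAA and the octamer ATGCAAAT, each on the other strand. The Cd44 window held GGAAGT at 2 places on the other strand and a TGANTCA. The Icam1 window held the RUNX core TGTGGT and a GGAAGT, and the Itga4 window held none of the cores searched.

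A region was called when its adjusted p was at most 0.01 (limma on log2(RPPM + 1), Benjamini-Hochberg over all 66177 regions) and its mean differed at least 2-fold on that scale, which understates the change of low regions. From nB to GCB in C mice, 13 of the 75 regions (17.3%) were higher and 9 (12.0%) lower, beside 14.2% and 8.47% of all regions. Between nB and BMPC 20 (26.7%) were higher in BMPC and 12 (16%) lower, beside 18.0% and 20.1% of all regions. From GCB to BMPC 19 (25.3%) were higher and 12 (16%) lower, beside 11.3% and 19.1%. The median log2 differences of the 75 regions were -0.16, 0.08 and 0.01, and those of all regions 0.05, 0.03 and -0.06. In KO mice 11 were higher and 8 lower from nB to GCB (14.7% and 10.7%, beside 18.4% and 7.84% of all regions). From nB to BMPC 21 were higher and 12 lower in KO (28.0% and 16%, beside 18.4% and 16.9%). From GCB to BMPC 19 were higher and 15 lower (25.3% and 20.0%, beside 12.1% and 19.9%). After quantile scaling the calls in these 6 comparisons were 12 higher and 11 lower, 19 and 11, 23 and 10 in C, and 9 and 10, 17 and 11, 24 and 12 in KO. Over all regions the calls from nB to GCB then became 7418 higher and 7053 lower in C (9427 and 5602 before) and 7679 and 7477 in KO (12205 and 5188 before). From GCB to BMPC they became 9585 and 9871 in C (7474 and 12636 before) and 10270 and 10345 in KO (8013 and 13138 before). Any 2 comparisons within a genotype share 1 group, so they are not separate evidence of one another. In at least 1 C or KO comparison between cell types 50 of the 75 regions were called and 25 in none. In C mice 27 regions had their highest mean in nB, 15 in GCB and 33 in BMPC. Neither of these counts was made over all regions, so they do not set the 75 regions apart.

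Itgb1 had the most uniform pattern, as all 6 of its regions were highest in GCB of C mice. All 5 regions other than the promoter were called higher in GCB than in nB in both genotypes, and the same 5 were called lower in BMPC than in GCB. Of all regions 14.2% in C and 18.4% in KO were called higher in GCB than in nB. In BMPC 19.1% and 19.9% were called lower than in GCB. At the region 32.4 kb upstream (chr8:131176665-131177119), the first one printed, the C libraries measured 1.22, 0.942 and 1.303 RPPM in nB, 22.4 and 24.8 in GCB and 5.20, 2.92 and 4.20 in BMPC. The KO libraries gave 1.15 and 0.984 in nB, 25.3, 26.7, 21.5 and 21.7 in GCB and 4.86 and 2.80 in BMPC. All 6 GCB libraries were above every BMPC library, and all 5 BMPC libraries were above every nB library. The log2 difference from nB to GCB was 3.52 ± 0.27 (SE, adjusted p = 6.79e-11) in C and 3.58 ± 0.26 (adjusted p = 1.51e-11) in KO, the highest of any Itgb1 region in both genotypes.

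The neighbouring Itgb1 region 30.6 kb upstream (chr8:131178449-131178972) had the same order, with C values of 1.71, 1.88 and 1.303 RPPM in nB, 21.99 and 18.3 in GCB and 6.76, 4.56 and 4.98 in BMPC. It was the Itgb1 region with the largest called rise from nB to BMPC, 1.28 ± 0.26 on the log2 scale (adjusted p = 0.000153) in C, and the groups did not overlap. With a pseudocount of 5 RPPM it was 0.65 and not called. In KO mice 1 nB library reached 4.11 RPPM and the BMPC libraries gave 8.50 and 4.85, a difference of 1.04 ± 0.32. At 20.8 kb upstream (chr8:131188222-131188720) the BMPC C libraries were near 0, at 1.04, 0.182 and 0 RPPM, against 11.4 and 20.6 in GCB C and 0.974, 1.88 and 3.54 in nB C. That region fell by more than any other Itgb1 region from GCB to BMPC, -3.61 ± 0.37 on the log2 scale (adjusted p = 5.79e-09). It was also called lower in BMPC than in nB in C (-1.14). A pair of further Itgb1 regions, named after their values were seen, were open mainly in GCB. The one 12.5 kb upstream (chr8:131196884-131197064) was at 0.287 ± 0.173 RPPM (SD, n = 3) in nB C, 10.9 ± 0.799 (n = 2) in GCB C and 0.339 ± 0.339 (n = 3) in BMPC C. The one in intron 3, 23.4 kb from the TSS (chr8:131232956-131233615), was at 3.45 ± 2.04, 14.6 ± 1.93 and 4.77 ± 0.306 RPPM.

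The Itgb1 promoter (chr8:131209022-131210512, over exon 1) was open in every group. It changed by less than these distal regions from nB to GCB and from GCB to BMPC. From nB to BMPC this did not hold for every distal region, as the one 12.5 kb upstream was at 0.287 and 0.339 RPPM in C. The promoter gave 30.0, 36.7 and 33.9 RPPM in nB C, 54.5 and 67.9 in GCB C and 47.7, 49.8 and 46.4 in BMPC C. The libraries of the 3 cell types did not overlap in C mice. The log2 difference from nB to GCB, 0.85 ± 0.15 (adjusted p = 6.05e-05), was under the 2-fold limit, and it was called only after quantile scaling (1.02) or without the GCB C pool F2 (1.002). The promoter held 79.7% of the summed accessibility of the Itgb1 regions in nB C, 41.7% in GCB C and 76.2% in BMPC C. The sum itself was 42.2, 146 and 63.0 RPPM.

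Itga4, which supplies the alpha subunit shared by VLA-4 and the MAdCAM-1 receptor, had its regions spread from 189.6 kb upstream of the TSS to 83.7 kb beyond it, and they moved in both directions. The 5 regions from 167.4 to 189.6 kb upstream lay nearer to the body of Ube2e3. The region 83.7 kb beyond the TSS lay in an intron of Cerkl. The counts given here include these regions near or in other genes, all of which had a higher mean in BMPC C than in nB C. In C mice 8 of the 26 Itga4 regions (30.8%) were called higher in BMPC than in nB and 4 (15.4%) lower. Of all regions 18.0% were higher and 20.1% lower. From GCB to BMPC 9 (34.6%) were higher and 2 (7.69%) lower, beside 11.3% and 19.1%. From nB to GCB 1 (3.85%) was higher and 3 (11.5%) lower, beside 14.2% and 8.47%. The region with the largest rise lay 116.9 kb upstream (chr2:78976864-78978673), at 5.36, 3.20 and 2.23 RPPM in nB C, 10.6 and 9.84 in GCB C and 86.1, 95.4 and 82.4 in BMPC C. The KO libraries had 4.61 and 3.35 in nB, 13.2, 10.2, 10.1 and 8.39 in GCB and 93.9 and 92.0 in BMPC. The lowest BMPC library was at 82.4 RPPM and the highest of all other libraries at 13.2. The GCB libraries were in turn all above the nB libraries. The log2 difference from nB to BMPC was 4.33 ± 0.21 (adjusted p = 9.94e-16) in C and 4.25 ± 0.25 (adjusted p = 2.10e-13) in KO. The one from GCB to BMPC in C was 2.99 ± 0.23 (adjusted p = 2.64e-11).

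The neighbouring region, 122.6 kb upstream (chr2:78972228-78973008, named after its values were seen), moved the other way, from 38.7, 37.7 and 42.1 RPPM in nB C and 46.6 and 38.4 in GCB C to 9.62, 9.49 and 8.56 in BMPC C. The highest of the 5 BMPC libraries was at 9.62 RPPM and the lowest of all others at 35.6. Between nB and BMPC it differed by -1.99 ± 0.15 (adjusted p = 1.34e-11) in C. Within the gene, a region in intron 2, 11.1 kb from the TSS (chr2:79106645-79107090, also named after its values were seen), rose from 0.724 ± 0.223 RPPM in nB C to 13.0 ± 2.40 in BMPC C (SD, n = 3). The change was 3.02 ± 0.37 on the log2 scale (adjusted p = 8.98e-08). The largest fall from nB to GCB in C was 23.9 kb upstream (chr2:79071131-79071634), with 15.1, 12.6 and 13.0 RPPM in nB C, 3.52 and 0.937 in GCB C and 2.34, 1.82 and 1.25 in BMPC C. The log2 differences were -2.30 ± 0.32 from nB to GCB (adjusted p = 1.70e-06) and -2.39 ± 0.29 from nB to BMPC (adjusted p = 4.73e-08).

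The Itga4 promoter (chr2:79094773-79096397) had the highest level of the 7 promoters, also per kb of region. It was at 74.8 RPPM per kb in nB C, 72.4 in GCB C and 45.0 in BMPC C. Its nB and GCB libraries overlapped, at 115, 134 and 117 RPPM in nB C and 119 and 117 in GCB C. The BMPC C libraries were lower, at 72.2, 75.9 and 71.5. The fall from nB to BMPC was -0.72 ± 0.08 (adjusted p = 3.20e-08), past the p limit and short of 2-fold. The promoter held 34.6% of the summed Itga4 accessibility in nB C, 40.8% in GCB C and 19.3% in BMPC C. The sum was 352, 290.1 and 380 RPPM.

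Itgb7, the beta subunit of the gut-homing receptor, was least accessible in GCB at 4 of its 5 regions in C mice. Its promoter (chr15:102062178-102062702) was the only one of the 7 that was called between nB and GCB. It gave 10.5, 9.23 and 12.3 RPPM in nB C, 2.64 and 1.41 in GCB C and 6.63, 8.39 and 7.79 in BMPC C. The KO libraries gave 11.4 and 12.2 in nB, 4.41, 2.55, 6.14 and 2.80 in GCB and 8.26 and 7.47 in BMPC. All 6 GCB libraries were below all nB and BMPC libraries, on counts of only 3 to 14 reads per GCB library. From nB to GCB the promoter differed by -1.97 ± 0.29 (adjusted p = 4.55e-06) in C and -1.42 ± 0.28 (adjusted p = 0.000137) in KO. From GCB to BMPC the promoter was higher by 1.53 ± 0.29 in C (adjusted p = 8.21e-05), or by 0.85 and not called with a pseudocount of 5 RPPM. In KO the difference was 0.89 ± 0.28 (adjusted p = 0.00836), which did not reach 2-fold.

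The largest Itgb7 rise from GCB to BMPC was 1.9 kb upstream, where the nearest gene by the annotation is Rarg (chr15:102064247-102064928), from 3.96 and 1.41 RPPM in GCB C to 11.1, 11.1 and 12.0 in BMPC C. The nB C libraries lay between them at 6.58, 5.65 and 6.89. The groups were separate and the log2 difference was 1.84 ± 0.31 (adjusted p = 1.82e-05). The deposited annotation also marked this region as a promoter. From nB to BMPC no Itgb7 region was called in C and 1 in KO, 3.4 kb upstream, in an exon of Rarg (chr15:102065742-102066235). Its log2 difference was 1.19 in KO and 0.55 in C. Of all regions 18.4% were called higher in BMPC than in nB in KO. The most accessible Itgb7 region was in intron 2, 6.1 kb from the TSS (chr15:102054769-102056235), at 52.7 ± 5.34 RPPM in nB C, 44.8 ± 6.99 in GCB C and 41.9 ± 3.76 in BMPC C. It was called in no comparison.

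**Figure D1:**
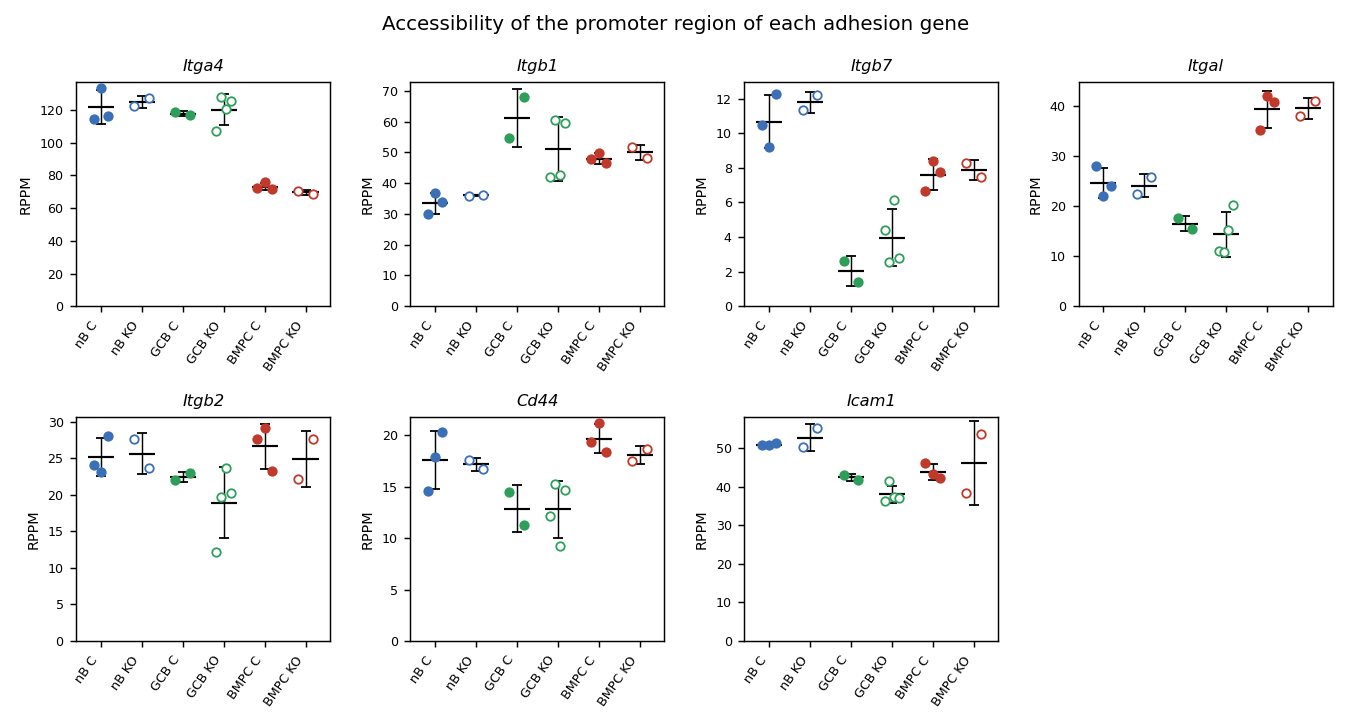
Accessibility (RPPM) at the promoter region of each of the 7 genes by group; points are libraries (filled for C, open for KO), horizontal bars are group means and error bars are SD. The Itgb7 promoter was lowest in the 6 GCB libraries and the Itgal promoter highest in the 5 BMPC libraries. In the main fit the Itga4, Itgb1, Itgb2, Cd44 and Icam1 promoters were called in no comparison.

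Of the promoters of the LFA-1 genes, that of Itgal (chr7:134439395-134440388, over exon 1) was called between GCB and BMPC and that of Itgb2 in no comparison. The Itgal promoter was most accessible in BMPC. It gave 28.0, 22.04 and 24.0 RPPM in nB C, 17.6 and 15.5 in GCB C and 35.2, 42.1 and 41.0 in BMPC C. Among KO libraries it gave 22.5 and 25.8 in nB, 11.01, 10.8, 15.3 and 20.3 in GCB and 38.1 and 41.1 in BMPC. BMPC libraries were all above nB libraries and these all above GCB libraries. The rise from GCB to BMPC was 1.21 ± 0.20 (adjusted p = 1.35e-05) in C and 1.44 ± 0.19 (adjusted p = 3.84e-07) in KO. The step from nB to BMPC, 0.66 ± 0.18 (adjusted p = 0.00269), was short of 2-fold. A region 5.8 kb upstream, which the deposited annotation puts in an intron of Zfp553 (chr7:134433673-134434093), was lower in BMPC C, at 3.25, 4.38 and 3.11 RPPM, than in nB C at 7.06, 11.5 and 6.89 and GCB C at 8.80 and 10.3. Its fall from nB to BMPC, -1.03 ± 0.26 (adjusted p = 0.00126), lay at the limit. The call was lost without the nB C library 2 (-0.81, adjusted p = 0.0193) and without the BMPC C library 1 (-0.98) or 3 (-0.95), with a pseudocount of 5 RPPM (-0.64) and after quantile scaling (-0.90).

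At Itgb2 a region upstream was open in GCB and a region in intron 1 was less open in BMPC, while the promoter was called in no comparison. That promoter (chr10:76992740-76993550, over exon 1) gave 24.1, 23.2 and 28.1 RPPM in nB C, 21.99 and 23.0 in GCB C and 27.6, 29.2 and 23.2 in BMPC C, and the nB and BMPC ranges overlapped. The region 3.1 kb upstream (chr10:76989485-76989964), whose sequence holds the ETS-IRF and octamer cores, gave 1.22, 1.51 and 1.49 RPPM in nB C, 27.7 and 28.6 in GCB C and 3.12, 4.01 and 2.02 in BMPC C. The KO values were 0.658 and 0.590 in nB, 27.5, 28.0, 32.0 and 23.1 in GCB and 3.52 and 2.99 in BMPC. The lowest of the 6 GCB libraries was at 23.1 RPPM and the highest of all other libraries at 4.01. The log2 difference from nB to GCB was 3.60 ± 0.27 (adjusted p = 2.91e-11) in C and 4.13 ± 0.25 (adjusted p = 5.64e-13) in KO. From GCB to BMPC in C it was -2.88 ± 0.27 (adjusted p = 9.77e-10). A region in intron 1, 6.3 kb from the TSS (chr10:76999390-77000394), was lower in BMPC. It gave 31.2, 28.6 and 32.9 RPPM in nB C, 24.6 and 24.8 in GCB C and 9.49, 8.39 and 8.56 in BMPC C. The nB and BMPC libraries did not overlap and differed by -1.70 ± 0.17 (adjusted p = 1.47e-09).

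Icam1, which encodes the LFA-1 ligand ICAM-1, had a promoter region (chr9:20819262-20820728) that was called in no comparison. It was at 50.7, 50.7 and 51.4 RPPM in nB C, 43.1 and 41.7 in GCB C and 46.2, 43.2 and 42.2 in BMPC C. Its second region, in intron 1, 0.4 kb from the TSS (chr9:20820853-20821469), was higher in BMPC. Its values were 7.80, 8.29 and 6.70 RPPM in nB C, 10.1 and 5.15 in GCB C and 22.5, 22.8 and 25.1 in BMPC C. The lowest of the 5 BMPC libraries of both genotypes was at 18.0 RPPM and the highest nB or GCB library at 10.1. The log2 difference was 1.51 ± 0.22 (adjusted p = 1.00e-06) from nB and 1.56 ± 0.24 (adjusted p = 5.03e-06) from GCB in C. In KO the same differences were 1.29 and 1.54.

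**Figure D2:**
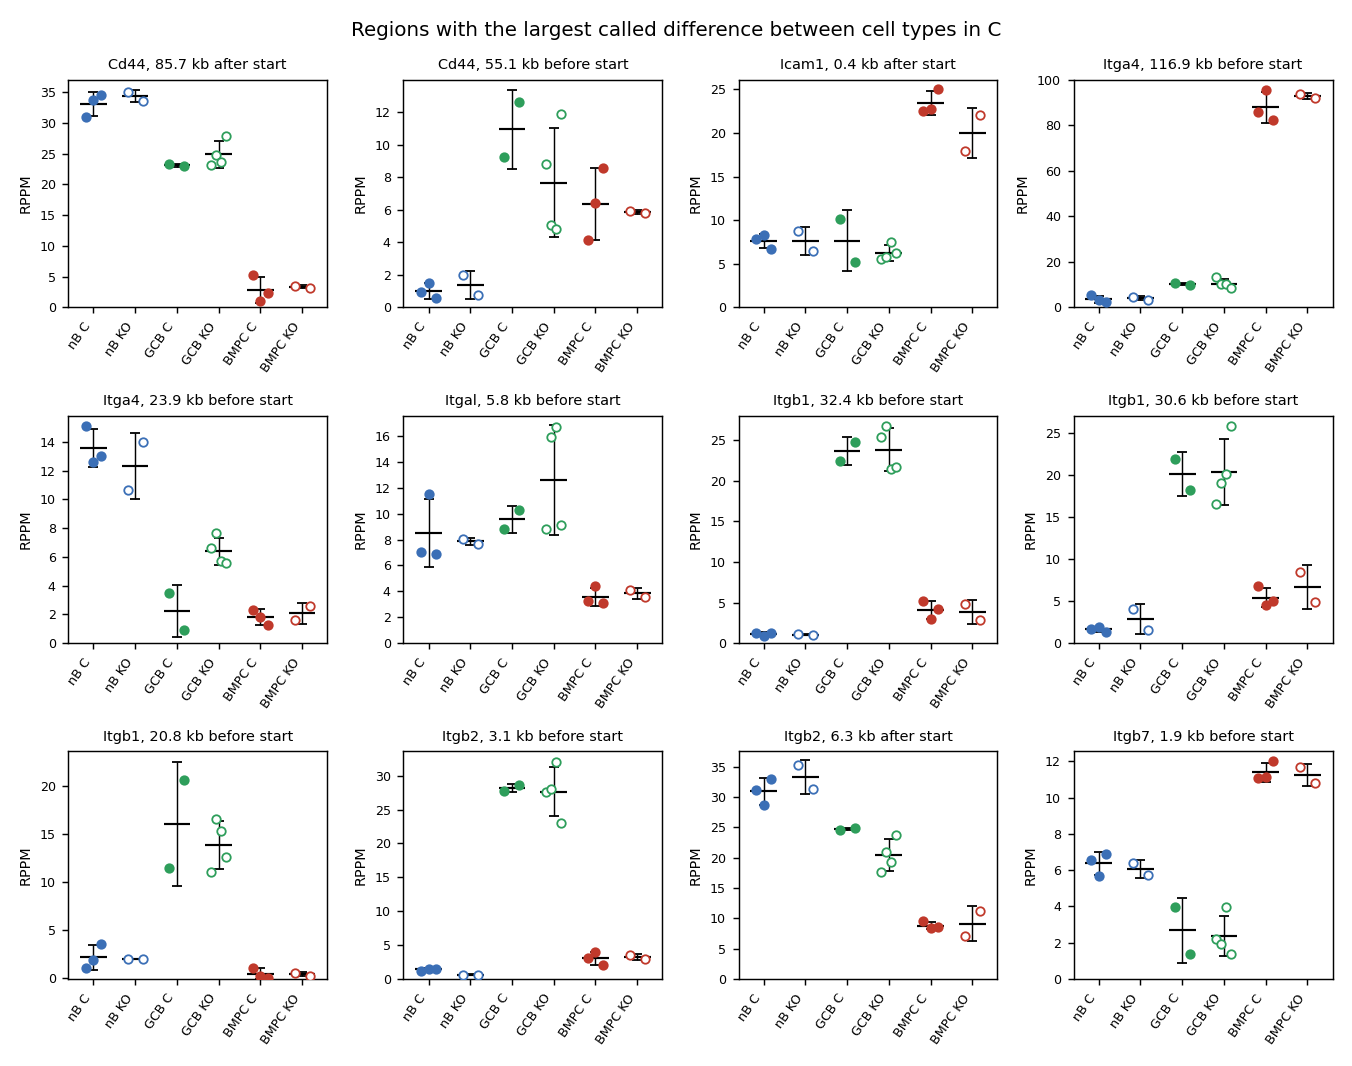
Accessibility (RPPM) by group at the 12 regions with the largest called difference of each gene in C mice, other than the promoter region named for each gene. Points are libraries (filled for C, open for KO), horizontal bars are group means and error bars are SD. The Itgb1 and Itgb2 upstream regions were high in GCB, the Itga4 region 116.9 kb upstream and the Icam1 intron 1 region were high in BMPC, and the Cd44 intron 18 region was low in BMPC.

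Cd44 had 24 regions, from 79.3 kb upstream of the TSS to 97.2 kb beyond it. In C mice 9 regions (37.5%, beside 18.0% of all regions) were called higher in BMPC than in nB. All of them lay between 55.1 kb upstream and 48.0 kb into the gene. Another 5 (20.8%, beside 20.1%) were called lower. Of these 3 lay 65.8 to 71.4 kb upstream, where Pdhx is the nearest gene, and 2 lay 85.7 and 88.4 kb into the gene. From nB to GCB 6 regions (25.0%, beside 14.2%) were higher and 3 (12.5%, beside 8.47%) lower, or 4 and 4 after quantile scaling. From GCB to BMPC 4 (16.7%, beside 11.3%) were higher and 2 (8.33%, beside 19.1%) lower. In KO mice 8 regions (33.3%, beside 18.4%) were called higher in BMPC than in nB and 7 (29.2%, beside 16.9%) lower. The largest fall was in intron 18, 85.7 kb into the gene (chr2:102655340-102656129). It gave 30.9, 33.7 and 34.6 RPPM in nB C, 23.3 and 23.0 in GCB C and 5.20, 1.09 and 2.34 in BMPC C. In KO mice it was at 35.0 and 33.7 in nB, 23.1, 24.8, 23.7 and 28.0 in GCB and 3.52 and 3.17 in BMPC. All nB libraries were above all GCB libraries and these above all BMPC libraries. The log2 difference from nB to BMPC was -3.28 ± 0.24 (adjusted p = 3.61e-12) in C and -3.02 ± 0.29 (adjusted p = 1.77e-09) in KO. From GCB to BMPC in C it was -2.78 ± 0.27 (adjusted p = 1.59e-09). Some regions nearer the start of the gene were higher in BMPC, and 3 of them are given here after their values were seen. Others were lower but short of 2-fold, with log2 differences from nB to BMPC in C of -0.86 ± 0.17 at 14 kb (adjusted p = 9.00e-05) and -0.86 ± 0.20 at 2.0 kb (adjusted p = 0.000693) from the TSS. The region in intron 1, 32.8 kb from the TSS, had means of 2.70 RPPM in nB C, 11.4 in GCB C and 26.4 in BMPC C. The one 5.0 kb from the TSS, also in intron 1, had 1.35, 4.82 and 20.9, and the one 12.4 kb upstream had 14.9, 11.7 and 55.4. Their log2 differences from nB to BMPC in C were 2.89 ± 0.20, 3.26 ± 0.27 and 1.83 ± 0.21 (adjusted p = 1.58e-12, 3.50e-11 and 1.55e-08).

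From nB to GCB the largest Cd44 rise was 55.1 kb upstream (chr2:102796930-102797567), from 0.974, 1.51 and 0.558 RPPM in nB C to 9.24 and 12.6 in GCB C, with 4.16, 6.39 and 8.56 in BMPC C. The nB libraries were below the others, and the log2 difference from nB to GCB was 2.58 ± 0.36 (adjusted p = 1.64e-06). The one from GCB to BMPC, -0.73 ± 0.36 (adjusted p = 0.0928), was not called. The Cd44 promoter (chr2:102741111-102741898, over exon 1) was at 14.6, 17.9 and 20.3 RPPM in nB C, 14.5 and 11.2 in GCB C and 19.4, 21.2 and 18.4 in BMPC C and was not called. It held 6.80% of the summed accessibility of the gene's regions in nB C, 5.62% in GCB C and 6.21% in BMPC C.

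**Figure D3:**
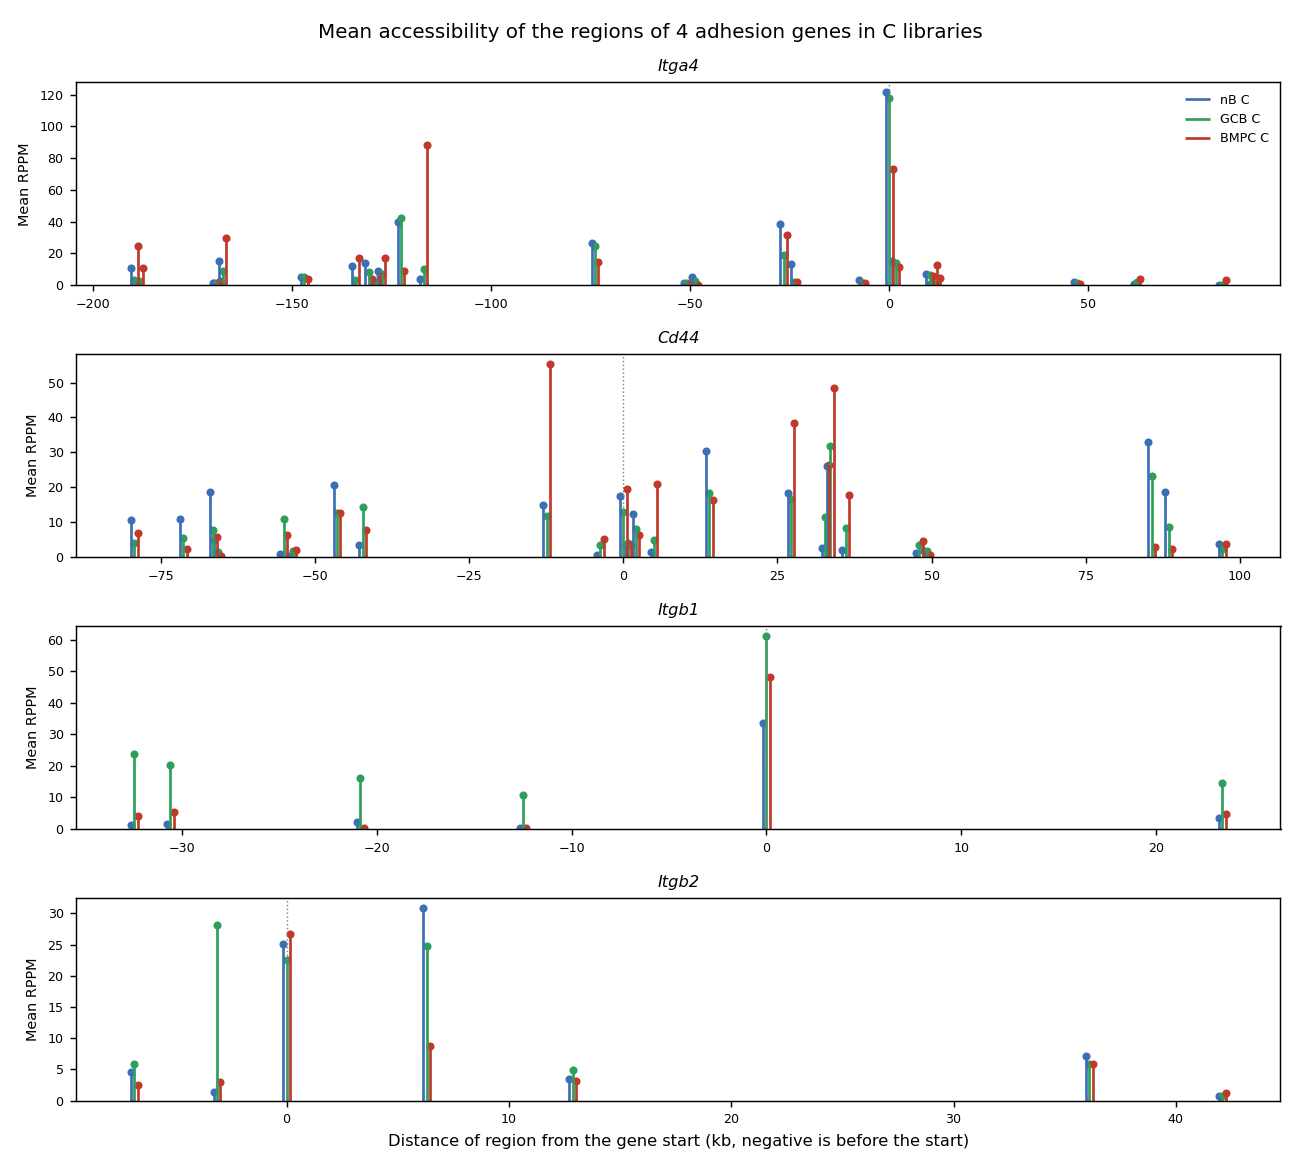
Mean accessibility (RPPM) in C libraries at every region of Itga4, Cd44, Itgb1 and Itgb2 against the distance of the region from the gene start in kb (negative is upstream); each region has a stem for nB, GCB and BMPC, drawn side by side. At 116.9 kb upstream of Itga4 (88.0 RPPM) and 12.4 kb upstream of Cd44 (55.4) the BMPC stem is taller than those of nB and GCB, and at 32.4 kb upstream of Itgb1 and 3.1 kb upstream of Itgb2 (28.1) the GCB stem is the tallest of the 3.

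Ordered by group, the promoters differed in which neighbours were separate. For Itgal both BMPC groups came first, then both nB groups, then both GCB groups. For Itgb7 the order was nB, BMPC and GCB, with the ranges of C and KO overlapping within each cell type. For Itga4 the nB and GCB groups overlapped in turn and the BMPC groups were lower. For Itgb1 the GCB and BMPC groups overlapped in turn and both nB groups were lower. Neighbouring groups all overlapped for Itgb2, all but nB KO and GCB C for Cd44 and all but GCB C and GCB KO for Icam1. Per kb of region in nB C the promoters ranked Itga4 (74.8 RPPM per kb), Icam1 (34.7), Itgb2 (31.0), Itgal (24.8), Itgb1 (22.5), Cd44 (22.3) and Itgb7 (20.3). In BMPC C the ranking was Itga4 (45.0), Itgal (39.7), Itgb2 (32.9), Itgb1 (32.2), Icam1 (29.9), Cd44 (24.9) and Itgb7 (14.5).

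Loss of Dnmt3a and Dnmt3b was compared within each cell type. The deletion itself was not checked here. None of the 75 regions was called between KO and C in nB, GCB or BMPC with limma, with edgeR or with DESeq2. With limma 0% of all regions were called in nB, 0.0317% (21 regions) in GCB and 0.104% (69 regions) in BMPC. That background in BMPC depended on the method, since 962 regions were called higher and 239 lower in KO by the quasi-likelihood test of edgeR, 1329 and 348 by its likelihood ratio test and 689 and 139 by DESeq2. With limma and 1 library left out it was 1 (without either BMPC KO library) to 209 regions (without the GCB KO pool F1) in BMPC and 1 (without the GCB C pool M1) to 61 (without the GCB C pool F2) in GCB. At an unadjusted p under 0.05, 3 of the 75 regions differed in nB, 11 in GCB and 2 in BMPC, beside 1107, 7801 and 6320 of all 66177 regions. As a share, the 75 regions were above all regions in nB and GCB and below them in BMPC. The log2 differences lay between -0.78 and 0.63 in nB, between -1.03 and 1.31 in GCB and between -0.60 and 0.80 in BMPC. The 95% interval of the difference lay within 2-fold in both directions for 59 of 75 regions in nB, 53 in GCB and 54 in BMPC, reaching a median of 0.60, 0.57 and 0.60 to either side on the log2 scale. For the other regions the data do not show that the genotypes were alike within 2-fold.

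The lowest adjusted p in GCB was at the Itga4 region 23.9 kb upstream described above. The GCB KO libraries had 6.61, 7.64, 5.70 and 5.59 RPPM and the GCB C libraries 3.52 and 0.937, and all 4 KO libraries were above both C libraries. The counts were 2 to 13 reads. The KO minus C difference was 1.31 ± 0.30 (95% interval 0.69 to 1.93, adjusted p = 0.0614). Without the C pool F2 it was 1.92 (adjusted p = 0.00922), which rests on 1 C library, and without the C pool M1 it was 0.70 (adjusted p = 0.584). Over all 28 alternatives the difference was 0.68 to 1.92, the adjusted p 0.00922 to 0.874, and 1 of them made the call. At this region KO and C libraries overlapped in BMPC and in nB, with differences of 0.14 and -0.14. In BMPC the lowest p of any member was also near Itga4, 6.8 kb upstream (chr2:79088557-79088772), with 2.43 and 2.80 RPPM in KO and 1.43, 0.912 and 0.934 in C. Both KO libraries were above the C libraries, and the log2 difference was 0.80 ± 0.33 (95% interval 0.13 to 1.46, unadjusted p = 0.0213, adjusted p = 0.360).

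For each other gene the region with the lowest p between BMPC KO and C differed by less. At Cd44, 42.3 kb upstream (chr2:102784088-102784602), the KO libraries had 10.8 and 12.1 RPPM and the C libraries 7.67, 9.12 and 6.07, with a log2 difference of 0.55 ± 0.25 (adjusted p = 0.451). At Itgb7 the intron 1 region 0.6 kb from the TSS had 5.34 and 4.85 in KO and 6.89, 8.76 and 7.63 in C (-0.52 ± 0.27, adjusted p = 0.568). The values for Itgb1 (30.6 kb upstream, 0.23 ± 0.30), Itgb2 (42.1 kb downstream, 0.39 ± 0.42), Itgal (6.7 kb upstream, -0.31 ± 0.34) and Icam1 (intron 1, -0.23 ± 0.24) had adjusted p-values of 0.985, 0.956, 0.960 and 0.957. The difference of differences, KO against C in GCB or BMPC beside KO against C in nB, was called at none of the 75 regions. With limma it was called at 0% of all regions for both cell types, and for BMPC at 35 higher and 14 lower regions by the quasi-likelihood test, 129 and 48 by the likelihood ratio test and 45 and 22 by DESeq2. Among the 75 the lowest adjusted p-values were 0.697 for GCB and 0.699 for BMPC. At an unadjusted p under 0.05 were 4 and 2 of them, beside 4107 and 3470 of all 66177 regions. These were smaller shares of the 75 than of all regions.

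**Figure D4:**
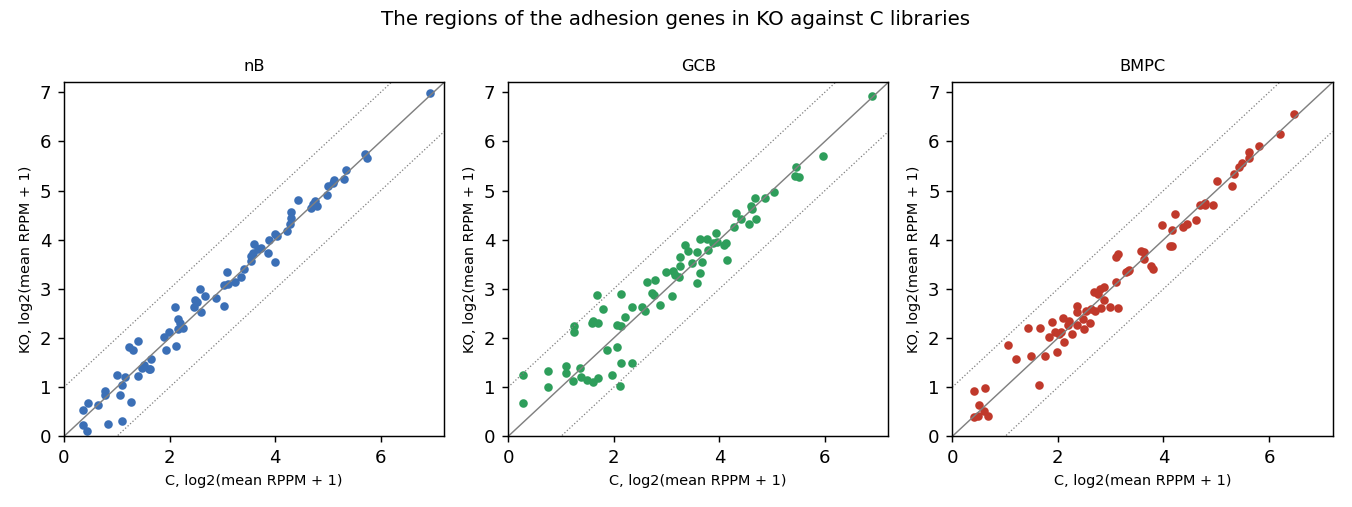
Each of the 75 regions in KO against C libraries, as log2(mean RPPM + 1), for nB, GCB and BMPC; the solid line marks equal values and the dotted lines a 2-fold difference on that scale. Most points lie between the dotted lines, and the Itga4 region 23.9 kb upstream, at 2.23 RPPM in GCB C and 6.38 in GCB KO, lies above them.

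The cell-type calls in C and KO mice were made on different animals. From nB to GCB 18 regions were called in both genotypes, which is 81.8% of the 22 called in C and 94.7% of the 19 called in KO. Between nB and BMPC 27 were shared (84.4% of 32 in C and 81.8% of 33 in KO), and between GCB and BMPC 27 (87.1% of 31 and 79.4% of 34). None of these regions was called in opposite directions. The overlap of C and KO calls was not counted over all regions, so these shares do not set the adhesion regions apart.

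Genes that act with these receptors were taken from lists of the integrin pathway. Of all regions in C mice 14.2% were called higher and 8.47% lower in GCB than in nB, and 18.0% higher and 20.1% lower in BMPC than in nB. The other 16 integrin alpha genes had 102 regions. Of them 10 (9.80%) were called higher and 18 (17.6%) lower in GCB than in nB, and 19 (18.6%) higher and 30 (29.4%) lower in BMPC than in nB. Their largest rise was at Itga1, a collagen-binding alpha subunit, at 0.225 RPPM in nB C and 11.2 in BMPC C (log2 difference 3.33). The largest fall was at Itga9, which pairs with beta 1, at 26.9 and 0.295 (-4.41). Among 38 regions of the other beta genes (4 of 5 had any), 7 (18.4%) were higher and 0 lower in GCB than in nB, and 6 (15.8%) were higher and 7 (18.4%) lower in BMPC. Itgb3, the beta subunit of the vitronectin receptor, had regions that rose from 0.536 RPPM in nB C to 8.93 in BMPC C (2.70) and fell from 23.0 to 1.33 (-3.40).

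Of 23 regions of integrin counter-receptors (6 of 7 genes) 6 (26.1%) were higher and 2 (8.70%) lower in BMPC than in nB. The largest changes were at Icam2, a further LFA-1 ligand, from 1.11 to 18.2 RPPM (3.20), and at F11r, which encodes the junctional molecule JAM-A, from 8.73 to 2.46 (-1.47). The selectin genes and the selectin ligand gene Selplg had 24 regions. Of these 1 (4.17%) was higher and 11 (45.8%) lower in GCB and 2 (8.33%) were higher and 18 (75.0%) lower in BMPC than in nB. The Selp region, in the gene of P-selectin, fell from 39.7 to 3.32 RPPM (-3.53), and the Selplg region, in the gene of its ligand PSGL-1, rose from 9.57 to 37.8 (1.88). Among 113 regions of adaptors and GTPases that activate integrins (12 of 13 genes), 23 (20.4%) were higher and 23 (20.4%) lower in BMPC than in nB. They were led by Rap1a, the GTPase upstream of talin, from 0.325 to 12.6 RPPM (3.43), and Apbb1ip, which encodes the Rap1 effector RIAM, from 31.8 to 1.91 (-3.50). The 27 regions of the ezrin, radixin and moesin genes, which tie CD44 to actin, had 2 (7.41%) higher and 8 (29.6%) lower in BMPC than in nB, with Ezr from 1.33 to 4.93 RPPM (1.46) and Msn from 15.9 to 1.82 (-2.59).

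Across the 16 libraries, log2(RPPM + 1) of each promoter was compared with that of all 11126 promoter regions. The most alike were Ccdc50 (Pearson r = 0.984) and Rgs13 (0.976) for Itga4, and Mccc2 (0.934) and Mia3 (0.922) for Itgb1. They were R3hcc1l (0.966) and Snrnp48 (0.957) for Itgb7, and Khk (0.977) and Mturn (0.975) for Itgal. For the remaining promoters they were Rpl22 (0.915) and Daglb (0.913) for Itgb2, Ifi35 (0.955) and Lsp1 (0.916) for Cd44, and Ap2s1 (0.893) and Osbpl8 (0.871) for Icam1. The libraries share depth and group, and the r values are descriptions.

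The 300-base windows of the 75 regions held the RUNX core TGTGGT in 28 windows (37.3%, beside 24.5% of 65893 windows of all regions) and the AP-1 core TGANTCA in 13 (17.3%, beside 9.18%), searched on both strands. The PU.1 core GGAAGT was in 23 (30.7%, beside 30.3%) and the E2A core CAGCTG in 17 (22.7%, beside 20.6%). The NF-kB core GGNNTTTCC was in 5 (6.67%, beside 6.76%), the ETS-IRF composite GGAANNGAA in 4 (5.33%, beside 11.6%) and the octamer ATGCAAAT in 3 (4%, beside 3.96%). The GGAANNGAA and GGAAGT cores can overlap. A match is a description of letters and not of binding. The windows at the 7 promoters had a median of 59.0% G and C and 12 CpG dinucleotides, the other 68 windows 45.0% and 3, and all windows together 49.3% and 5. The Itgb1 promoter window held 48 CpG dinucleotides and its regions 32.4 and 30.6 kb upstream 4 and 9. The Itga4 promoter held 17 and the region 116.9 kb upstream 4.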

How the data were processed

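ATAC-seq had been done on sorted cells of 17 samples, and 16 libraries in 6 groups were used, grouped by the labels; 1 BMPC KO sample was not analysed here. Per the study's methods and the submitters' processing notes, trimmed reads were aligned by the authors to mm9 with Bowtie (1.1.1 in the notes), Picard 1.127 was run, and they called peaks per sample with MACS2 2.1.0.20140616 at q 0.01, merged all peaks into a union of 66177 regions and counted reads in each. The deposited values (RPM, here over the reads in regions and named RPPM) sum to 1e+06 in each library, so a gain in many regions lowers the rest. Divided by the RPPM of 1 read, 100% of values came out whole (tolerance 0.01 reads), which gave the reads in regions per library. The table also holds the authors' fold changes, mean log levels, test statistics, p-values, false discovery rates and calls for 9 comparisons, none of which was used.

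The 7 genes and all other lists were chosen with earlier results of these data known. log2(RPPM + 1) of all 66177 regions was fitted with limma 3.58.1 (R 4.3.3) on 6 group means with a variance trend, and p-values were adjusted over all regions (Benjamini-Hochberg, 2-sided). No region was filtered out. The named regions are, for each gene, its promoter (within 1000 bp of the start), the region with the largest called difference in each of the 3 C comparisons, and the region with the lowest p for KO against C in BMPC; others are said to have been named after their values were seen. In each further list the largest called rise and fall from nB to BMPC were named. The alternatives were pseudocounts of 0.1 and 5 RPPM, a minimum mean of 1 RPPM, TMM and quantile scaling, edgeR 4.0.16 (quasi-likelihood and likelihood ratio) and DESeq2 1.42.0 on the recovered reads, an adjusted p limit of 0.05, a fit without the variance trend, fits of the compared groups alone, annotation by nearest gene only, sums over each gene's regions and the omission of each library. The steps were tested on simulated data. Exons, introns and sequences came from GENCODE M1 and the NCBIM37 genome (284 regions on 9 unplaced names were left out of the motif search). Levels of different genes were compared per kb of region.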

Additional observations from a re-analysis of the deposited data

How the results depend on the processing

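The counts of the 75 regions called between cell types depended most on the pseudocount. With 5 RPPM in place of 1 they were 11 (nB to GCB), 16 (nB to BMPC) and 20 (GCB to BMPC) in C. In KO they were 8, 17 and 20, since a larger pseudocount shrinks the differences of low regions below 2-fold. The higher and lower calls were then 9 and 2, 8 and 8, and 12 and 8 in C. In KO they were 7 and 1, 7 and 10, and 12 and 8. From nB to BMPC the 75 regions thus no longer had more higher than lower calls. Over all 66177 regions the calls were 4324 and 2488, 5673 and 6614, and 4009 and 6071 in C. In KO they were 4643 and 2366, 6497 and 6260, and 4081 and 6019. Leaving out 1 library at a time gave 16 to 24, 26 to 32 and 27 to 33 in C. In KO it gave 14 to 20, 23 to 35 and 25 to 34. Over all regions the calls were then 11856 to 16348, 23072 to 25997 and 16864 to 21403 in C. In KO they were 11485 to 17944, 17833 to 24884 and 15269 to 21721. KO against C gave 0 to 1 in GCB and 0 to 0 in nB, in BMPC and for both differences of differences, and the 1 region was called without the GCB C pool F2. With the 2 pool names that C and KO GCB share (F2 and M1) as a replicate block, 0 regions were called. F2 was female and M1 male in both genotypes. The F2 minus M1 differences of C and KO correlated at 0.06 across regions. Whether pools of the same name were prepared together was not tested. Quantile scaling moved the median of all regions from 0.05 to -0.06 from nB to GCB and from -0.06 to 0.09 from GCB to BMPC in C.

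Of 1236 single-region alternatives 1202 kept direction and call, and 11 reversed, all of them of results that were not called. The Itgb2 promoter changed to 0.00103 from nB to GCB with quantile scaling and, as the sum of the gene's regions, to 0.33, -0.51 (nB to BMPC) and -0.84 (GCB to BMPC). The Itga4 promoter changed to 0.0243 from nB to GCB with quantile scaling, to between -0.0833 and 0.0254 without 1 library (0.0254 without the nB C library 2), and as a sum to 0.11 (nB to BMPC) and 0.39 (GCB to BMPC). The Icam1 promoter changed to 0.20 from nB to BMPC as a sum and to -0.25 from GCB to BMPC with quantile scaling, and the Itgb1 region 30.6 kb upstream to between -0.122 and 0.577 for BMPC KO against C without 1 library (-0.122 without the KO library 1). The sums hold different regions than the promoter; for the others the cause was not tested. The GCB libraries were shallowest, and their values at regions of few reads were the least precise. With 2 to 4 libraries in each group, intervals of the genotype difference were often wider than 2-fold.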
